A study of Mus musculus with 2 samples.

Results

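The cells described here were spinal cord ependymal cells that carried RNA of a small set of genes better known from astrocytes and radial glia. A cell was taken as ependymal when it had a UMI (a counted RNA molecule) of at least 5 of the 10 genes Ccdc153, Fam183b, Tmem212, Foxj1, Rsph1, Dynlrb2, Pifo, Tmem107, Mia and Fam216b, and when the endothelial genes Cldn5, Flt1, Pecam1, Ly6c1, Slco1a4, Itm2a, Cdh5 and Ly6a together made up less than 0.5% of its UMIs. It was then selected when it had a UMI of at least 4 of the 6 genes Lsamp, Gpm6a, Luzp2, Ptprz1, Gabrb1 and Adra2a. The rule chose 554 of 30236 cells, 115 of 25411 in the non-traced library and 439 of 4825 in the traced library, and left 1064 and 4306 ependymal cells unselected. Because the cells were chosen on their counts of these genes, values of the rule genes are a description and were not tested.

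The study asked whether ependymal cells that had been marked by DNGR-1 lineage tracing differ from those that had not. Both libraries came from spinal cords of adult C57BL/6j mice of 10 to 12 weeks with the genotype Clec9acre/creR26LSLtdTomato/LSLtdTomato, homozygous for both alleles. CD45- CD133+ cells were sorted by tdTomato into a traced and a non-traced fraction, and each was sequenced with a 10x droplet 3' method. Clec9a encodes DNGR-1, and a Cre driven from this locus marks any cell in which the gene was active earlier, together with its descendants, so that the colour records past rather than present expression and labels only some of the ependymal cells. Each group was 1 library, the number of cords pooled in each was not given in the sources used here, and no difference between libraries or between sets of cells could be tested across animals. Intervals below are 95% exact intervals (Clopper-Pearson for shares, Poisson for levels, conditional binomial for ratios) and cover counting error only.

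Ependymal cells line the central canal, carry motile cilia that move cerebrospinal fluid, and descend from radial glia, the progenitors that also give rise to astrocytes. After spinal cord injury some ependymal cells divide and can give rise to astrocytes. Of the genes used for selection, Lsamp encodes a cell adhesion protein of the IgLON family, Gpm6a a membrane proteolipid of growth cones, and Luzp2 a leucine zipper protein. Ptprz1 encodes a receptor-type tyrosine phosphatase of radial glia and astrocytes that binds the growth factors pleiotrophin and midkine, Gabrb1 a beta subunit of the GABA-A receptor, and Adra2a an adrenergic receptor.

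In the GENCODE annotation of GRCm38, the same assembly as mm10, all 6 are protein-coding genes. Lsamp lies at chr16:39984361-42181679, Gpm6a at chr8:54954843-55060871, Luzp2 at chr7:54835498-55268885, Ptprz1 at chr6:22875502-23052916, Gabrb1 at chr5:71658113-72149037 and Adra2a at chr19:54044151-54048982, all on the plus strand. No 2 of them share a chromosome. With a 3' method, UMIs report RNA of a gene close to its polyadenylation site and not which exons were used.

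The selected cells made up 9.75% of the ependymal cells (interval 8.12 to 11.6) in the non-traced and 9.25% (8.44 to 10.1) in the traced library, before any allowance for the greater depth of the traced cells. Of the selected cells 79.2% came from the traced library, beside 80.2% of the remaining ependymal cells. Ependymal cells with 0, 1, 2 and 3 of the 6 genes numbered 190, 362, 315 and 197 in the non-traced and 719, 1462, 1366 and 759 in the traced library. Those with 4, 5 and 6 numbered 85, 26 and 4, and 309, 109 and 21. Holding 1 gene was the most common in both libraries, and the numbers fell from there with no gap at the threshold.

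Selection ran with sequencing depth. The median UMI count was 9412 in the non-traced selected cells (range 3874 to 23986) against 6910.5 in the remaining ependymal cells, and 13058 (4874 to 41258) against 8424 in the traced library. Among non-traced ependymal cells the selected share was 1.12% below 5000 UMIs, 7.24% from 5000 to 10000, 26.5% from 10000 to 15000 and 46.2% above that. In the traced library the same depth classes gave 0.418%, 5.20%, 12.9% and 30.9%. When every ependymal cell was first thinned to 3000 UMIs and the rule applied again, 14 non-traced and 20 traced cells still met it, 1.23% and 0.428% of the ependymal cells, so that the traced share of the selected cells was 58.8% in place of 79.2%. In each depth class and after thinning the selected share was thus higher in the non-traced library. Among the depth classes, the intervals of the 2 libraries lay apart only from 10000 to 15000 UMIs (19.2 to 34.9 against 10.7 to 15.4). The lowest class held 2 non-traced and 1 traced selected cells. The near-equal shares above are those at the depth as sequenced. The thinned shares rested on few cells, and the part in them of the non-traced droplets with astrocyte genes described below was not tested. The set was rich in deeply sequenced cells, and shares of cells with a UMI below stand beside a thinned share or a level scaled to the UMI total.

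**Figure D1:**
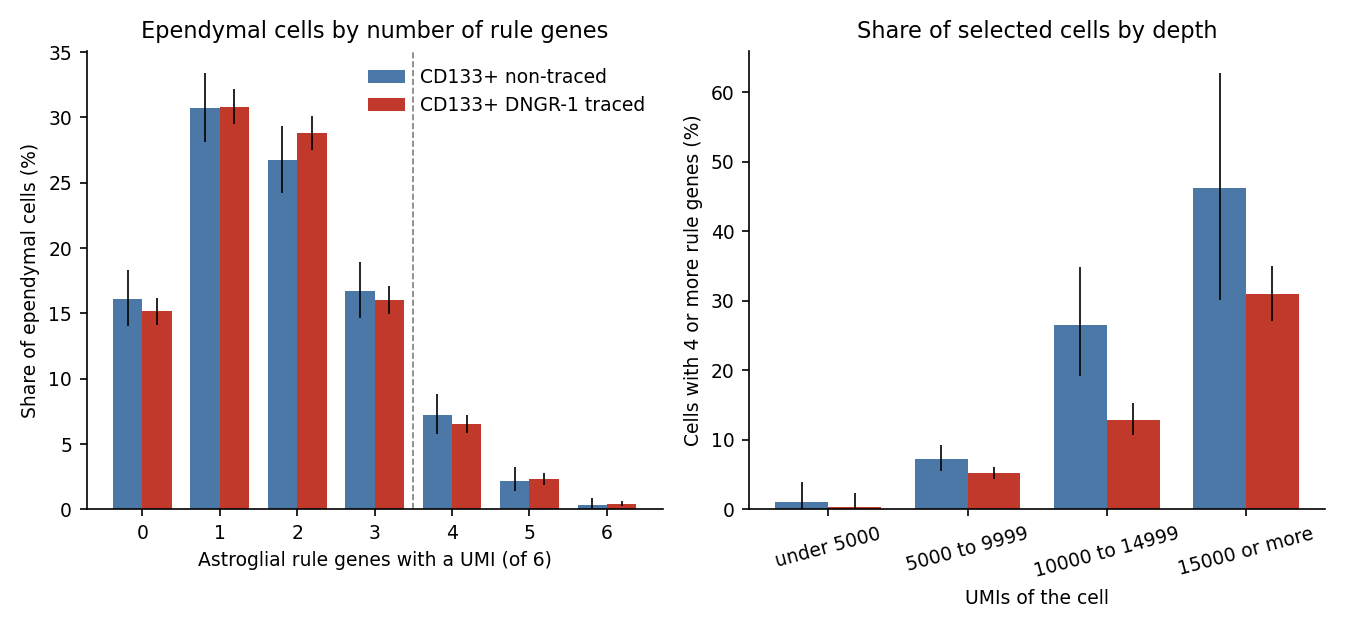
Left, the percent of ependymal cells with 0 to 6 of the 6 selecting genes in the non-traced and traced libraries, with 95% exact Clopper-Pearson intervals. Right, the percent of ependymal cells selected in classes of total UMI count, which went from 1.12% to 46.2% in the non-traced and from 0.418% to 30.9% in the traced library.

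The selected cells were otherwise ependymal by the genes that defined them. The median cell had UMIs of 10 of the 10 ependymal genes in both libraries, the same as in the remaining ependymal cells. Foxj1, the transcription factor that switches on motile ciliogenesis, stood at 490 CPM (counts of a gene scaled to the same UMI total) in the selected against 509 in the remaining cells of the non-traced library and at 451 against 478 in the traced library. Over the 10 ependymal genes the median difference, selected minus remaining cells on the log2(CPM + 1) scale, was -0.13 and -0.11, and 9 of the 10 were below 0 in both libraries. The median percent of mitochondrial UMIs was 5.41 against 5.86 and 3.82 against 4.0. Of 176 non-traced cells that met both gene criteria, 61 were left out by the endothelial limit, the lowest of them at 0.551%, whereas the highest selected cell was at 0.179%. No traced cell was left out in this way. The 2 libraries shared 42 cell barcodes, 0 of them among the selected cells of both and 1 of a traced selected cell.

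Levels of the 6 selecting genes describe what was chosen. In the non-traced library Gpm6a stood at 134 CPM in the selected and 37.7 CPM in the remaining ependymal cells, and in the traced library at 67.0 and 18.2 CPM. Lsamp stood at 87.2 and 18.2 CPM in the non-traced and at 45.7 and 14.8 CPM in the traced library. Luzp2, the most widely detected of the 6 in both libraries, stood at 154 and 75.6 CPM and at 171 and 116 CPM. It had a UMI in 94.3% of traced selected cells but also in 58.6% of the remaining traced cells, so that it separated the traced sets least. Ptprz1 stood at 139 and 54.3 CPM in the non-traced and 106 and 42.8 CPM in the traced library, Gabrb1 at 115 and 45.7 and at 76.2 and 26.3 CPM, and Adra2a at 96.3 and 49.3 and at 92.8 and 33.9 CPM. Endothelial cells of the non-traced library had a UMI of these genes in 0.234% (Luzp2) to 1.89% (Lsamp) of cells at a median depth of 7131 UMIs, far below the 11.4% to 37.0% in the remaining non-traced ependymal cells.

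No single combination of the 6 genes dominated. Each library held 22 different combinations, and the most frequent was the same in both, Gpm6a with Luzp2, Ptprz1 and Adra2a, in 13 non-traced (11.3%) and 51 traced selected cells (11.6%). The highest count of any of the 6 in a single selected cell was 12, for Gpm6a, in the non-traced library and 11, for Luzp2 and for Adra2a, in the traced library.

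Cells just inside the threshold, with 4 of the genes, and just outside it, with 3, were close in genes the rule did not use. Foxj1 stood at 505 CPM in cells with 4 and 503 CPM in cells with 3 genes of the non-traced library, and at 455 and 460 CPM in the traced library. Cpe, a carboxypeptidase that trims prohormones and neuropeptides, stood at 24.8 and 13.4 CPM in the non-traced and at 9.2 and 2.7 CPM in the traced library. Of the rule genes, Gpm6a went from 68.2 to 111 CPM and from 37.7 to 58.9 CPM between 3 and 4 genes.

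How the 6 genes ran together within a range of depth was described by holding out each gene in turn. Within the interquartile range of the selected cells' UMI counts, cells were chosen on at least 4 of the other 5 genes and the held-out gene was measured. In the traced library, with 77 to 147 cells chosen, each of the 6 held-out genes was higher in the chosen than in the other cells. The log2 ratio of CPM was 1.08 for Gpm6a, 1.01 for Gabrb1, 0.78 for Lsamp, 0.77 for Ptprz1, 0.57 for Adra2a and 0.48 for Luzp2, and all 6 intervals lay above 0. In the non-traced library, with 20 to 33 cells chosen, the ratios ran from -0.80 for Luzp2 to 0.41 for Gabrb1 and every interval included 0. Median UMI counts still differed within the window (for Lsamp in the traced library, 13297 in the chosen and 10297.5 in the other cells), and CPM divides each gene by the UMIs of its own set. The 6 genes and the rule were chosen with these data known. These ratios therefore describe the chosen cells and are no test of whether the genes form a set.

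**Figure D2:**
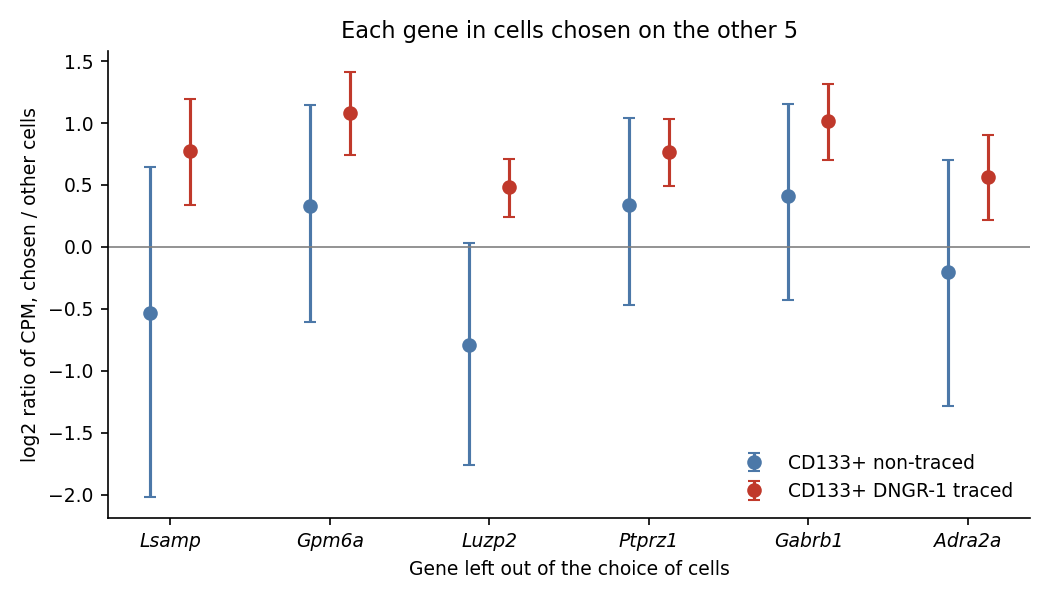
Log2 ratio of CPM of each held-out gene, cells with at least 4 of the other 5 genes over the other ependymal cells in the same range of UMI counts, with 95% conditional binomial intervals. In the traced library all 6 ratios (0.48 to 1.08) lie above 0 with their intervals, and in the non-traced library all 6 intervals cross 0.

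A second description, with the same limit, split the UMIs of each cell at random into equal parts, chose cells on one part and measured genes in the other. The rule chose 25 non-traced and 115 traced cells. The unused part of the traced cells gave differences on the log2(CPM + 1) scale of 1.56 for Gpm6a, 1.16 for Gabrb1, 1.11 for Ptprz1, 0.53 for Adra2a, 0.35 for Luzp2 and 0.34 for Lsamp, and the interval of the Lsamp ratio included 0. The 25 non-traced cells held 2 of the 3 droplets with astrocyte genes described below, and without droplets of that kind 23 were left. Their differences were 1.13 for Gabrb1, 0.85 for Ptprz1, 0.61 for Gpm6a, 0.50 for Luzp2, 0.47 for Lsamp and -0.25 for Adra2a, and only the intervals of Gabrb1 and Ptprz1 lay above 0. With the droplets kept, Gpm6a was at 1.25 and Lsamp at 1.86. Cpe, outside the rule, was higher by 1.99 without the droplets (2.34 with them) and by 2.18 in the traced library, and Foxj1 differed by -0.05 and -0.10.

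Next, all genes outside the rule were compared between the selected and the remaining ependymal cells within each library. Of 9289 genes with a mean of at least 10 CPM over the 4 sums, 2 were higher by 1 or more on the log2(CPM + 1) scale in both libraries (0.0215% of genes tested) and 0 were lower by as much in both (0.0%). Taking any size, 3203 genes were higher in both (34.5%) and 2191 lower in both (23.6%). In the non-traced library alone 42 genes were higher (0.452%) and 22 lower (0.237%) by 1 or more, but 11 of the 42 were genes of the astrocyte lists, and only 18 of the 42 and 16 of the 22 stayed past 1 without the 3 droplets with astrocyte genes described below. Within the interquartile range of the selected cells' UMI counts 14 and 17 did. In the traced library alone 11 were higher (0.118%) and 0 lower (0.0%). The selected cells thus differed from other ependymal cells by few genes beyond the 6 that chose them, and the median difference over all genes was 0.03 and 0.02. Since each library is a single sample, these are counts past a fixed size and not tests.

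The pair of genes higher in both libraries was Cpe and Pla2g7, which encodes a secreted phospholipase that degrades platelet-activating factor. Cpe stood at 48.2 CPM in the non-traced selected cells against 10.4 CPM in the remaining cells, and at 12.6 against 2.99 CPM in the traced library, differences of 2.11 and 1.77. It had a UMI in 12.2% of non-traced and 8.66% of traced selected cells against 5.55% and 2.42% of the remaining cells, and after thinning in 6.96% and 3.42% against 3.0% and 0.755%. Its RNA was plentiful in other cells of the non-traced library, with a UMI in 34.4% of endothelial cells, and the part of free RNA in its level was not tested. Pla2g7 stood at 59.0 against 2.08 CPM in the non-traced and at 4.97 against 1.53 CPM in the traced library, and the non-traced value rested largely on the 3 droplets described next.

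Astrocyte genes were the first group to check against the selection, and 3 non-traced selected droplets stood apart from all others. Each had a UMI of 10 of the 10 astrocyte-defining genes (Aqp4, Gja1, Gjb6, Slc1a2, Aldh1l1, Gfap, S1pr1, Fgfr3, Agt and Slc7a10) as well as of 10 of the 10 ependymal genes. Their UMI totals were 15188, 13055 and 17079, and they held 61, 22 and 41 UMIs of Slc1a2, the main astrocyte glutamate transporter. The next highest selected cells had 5 of the astrocyte genes in the non-traced and 6 in the traced library. Droplets that held more than 1 cell were not removed, since the methods name no such step, and whether these 3 did was not tested.

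Outside these 3 droplets the selected cells carried few astrocyte-defining genes. The median number was 3 in the selected and 2 in the remaining ependymal cells of both libraries at the depth as sequenced, against 9 in the 87 non-traced cells that had at least 5 astrocyte-defining and fewer than 3 ependymal genes, here called astrocyte marker cells. After thinning, at least 3 of the genes were found in 15.7% of selected and 7.95% of remaining non-traced cells, the 3 droplets included, and in 7.97% and 5.78% of traced cells. The astrocyte marker cells had Lsamp at 458 CPM, Gpm6a at 403 CPM, Ptprz1 at 558 CPM and Gabrb1 at 243 CPM, all above the selected cells, but Luzp2 at 147 CPM and Adra2a at 78.1 CPM, below them. This Luzp2 level lay within the interval of the non-traced selected cells (132 to 177 CPM). No endothelial limit was set for the marker cells, whose median endothelial share was 1.09% of UMIs.

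**Figure D3:**
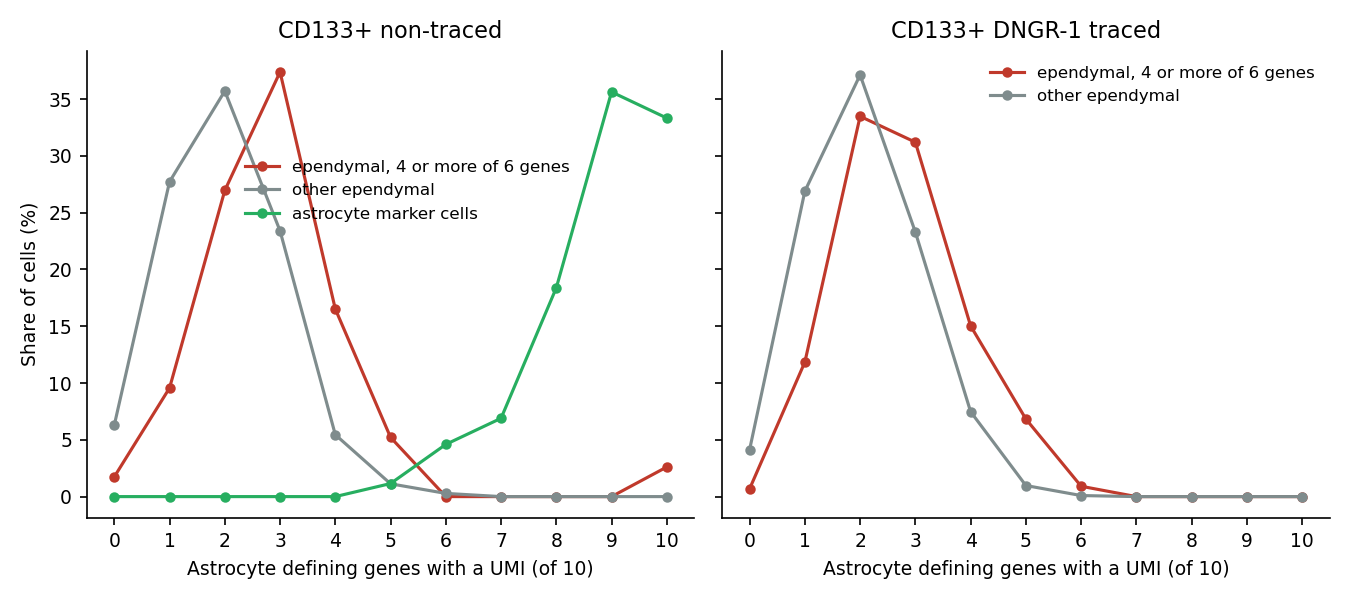
Percent of cells by the number of the 10 astrocyte-defining genes with a UMI, for the selected cells, the remaining ependymal cells and the 87 astrocyte marker cells. The selected cells centre on 3 and the remaining ependymal cells on 2, while the astrocyte marker cells centre on 9, and 3 non-traced selected droplets stand at 10.

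The astrocyte-defining list shows how much those droplets weighed. Over its 10 genes the median difference was 1.73 in the non-traced library and fell to 0.07 when the 3 droplets were left out, beside 0.25 in the traced library. Over a broader list of 35 astrocyte genes it was 0.81, then 0.22 without the droplets, and 0.19 in the traced library. Of the broad list, 27 genes reached 10 CPM, 22 of these were above 0 in both libraries and 0 below, and none passed 1 in both. Without the droplets 24 reached it, with 17 above 0 in both and 1 below, beside 3184 above and 2164 below of 9288 genes tested.

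Some of the astrocyte-defining genes were near or at 0 in the selected cells once the droplets were left out, and others were not. Gjb6, a gap junction connexin, stood at 13.3 CPM in all non-traced selected cells, at 0 CPM without the 3 droplets and at 0 CPM in the traced selected cells. Slc7a10, an amino acid transporter of astrocytes, went from 42.3 to 0.863 CPM without them and was at 0.166 CPM in the traced library. Aldh1l1, an enzyme of folate metabolism used to mark astrocytes, went from 7.47 to 2.59 CPM, beside 0.780 CPM in the remaining cells, and stood at 1.33 against 0.679 CPM in the traced library. Agt, which encodes angiotensinogen, went from 20.8 to 2.59 CPM, beside 2.73 CPM in the remaining cells, and stood at 0.829 against 1.03 CPM in the traced library. Slc1a2 stayed higher, at 45.7 against 25.2 CPM without the droplets (0.83) and at 25.4 against 17.1 CPM in the traced library (0.54). Fgfr3, a growth factor receptor, stood at 31.9 against 33.9 CPM without the droplets and at 22.9 against 18.8 CPM, and S1pr1, a sphingolipid receptor, at 77.6 against 58.2 CPM and at 67.5 against 65.0 CPM.

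Genes that ependymal cells share with astrocytes differed by unequal amounts. Gja1, the gap junction gene connexin 43 of both cell types, stood at 421 against 358 CPM in the non-traced and 403 against 339 CPM in the traced library. Aqp4, the water channel, stood at 296 against 127 CPM in the non-traced library (1.21), or 264 without the 3 droplets (1.05), and at 131 against 110 CPM in the traced library (0.26). Gfap, the glial intermediate filament, stood at 24.1 against 15.3 CPM, or 15.5 without the droplets and so level with the remaining cells, and at 16.4 against 10.3 CPM in the traced library. Of the 99 Gfap UMIs in the traced selected cells, 39 lay in the 21 cells with all 6 selecting genes, which stood at 110 CPM. Traced cells with 4 and 5 of the genes stood at 10.4 and 10.98 CPM, close to the remaining cells. After thinning, the share of traced cells with a Gfap UMI was 3.64% in the selected and 2.31% in the remaining cells. Sparcl1, a secreted synapse-promoting protein, stood at 978 against 647 CPM and at 799 against 682 CPM. Beyond the 6 genes that the selection fixed, the astroglial label thus rested on part of the glial genes, with Aqp4 and Slc1a2 higher in both libraries, and Gjb6, Slc7a10, Aldh1l1 and Agt at 0 to 2.59 CPM without the droplets.

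Beyond Cpe and Pla2g7, the genes that ranked highest in both libraries stayed under a difference of 1 in at least 1 of them. Gabra2, an alpha subunit of the GABA-A receptor, stood at 25.7 against 8.71 CPM in the non-traced library (1.46) and at 9.78 against 4.52 CPM in the traced library (0.96). Lhfp, a tetraspan membrane protein gene, stood at 57.3 against 30.0 CPM (0.91) and at 24 against 11.3 CPM (1.02). Dpp6, an auxiliary subunit of neuronal potassium channels, stood at 25.7 against 9.62 CPM (1.33) and at 26.2 against 15.7 CPM (0.71). Pcdh10, a protocadherin of cell contacts, stood at 65.6 against 36.5 CPM (0.83) and at 49.7 against 29.7 CPM (0.73). These 4 kept non-traced differences of 1.32, 0.86, 1.34 and 0.69 without the 3 droplets.

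The other genes ranked highest were Cldn10, a tight junction claudin, Psd2, an exchange factor for Arf proteins, Mpp6, a membrane scaffold, the homeobox gene Hoxd11, Ntrk3, the receptor of neurotrophin-3, and the adhesion gene Cadm4. Cldn10 depended most on the droplets, with a non-traced difference of 3.79 that became 1.26 without them and 0.87 in the traced library. Cadm4 went from 0.74 to 0.06 and Ntrk3 from 0.91 to 0.33, beside 0.89 and 0.77 in the traced library. Hoxd11 stood at 33.2 against 17.5 CPM and at 12.1 against 6.58 CPM.

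Families of the 6 selecting genes did not move as a whole. Of the 10 other GABA-A subunit genes in the files, 3 reached 10 CPM and all 3 were above 0 in both libraries, while Gabra3 had 0 UMIs in any ependymal cell. Over all genes tested, 34.5% were above 0 in both. Gabrg1 stood at 33.2 against 18.6 CPM and at 21.1 against 19.3 CPM, and Gabrg3 at 18.3 against 17.4 CPM and 37.8 against 31.4 CPM. Among the IgLON relatives of Lsamp, Ntm stood at 35.7 against 10.5 CPM in the non-traced but at 16.4 against 16.2 CPM in the traced library, and Negr1 at 88.0 against 68.1 CPM and 68.8 against 56.8 CPM. Gpm6b, the relative of Gpm6a, was higher by 0.31 and 0.36. Adrb1, a beta adrenergic receptor, differed by 0.16 and 0.13.

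Ligands and partners of Ptprz1 were measured as well. Mdk, which encodes midkine, stood at 272 against 205 CPM in the non-traced and 212 against 174 CPM in the traced library. Ptn, which encodes pleiotrophin, stood at 39.0 against 45.4 CPM and at 2.15 against 2.61 CPM, so that its level differed far more between the libraries than with the selection. Cntn1, a contactin, differed by -0.27 and 0.61, in opposite directions. Ncam1 differed by 0.16 and 0.22.

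Of a list of 35 genes for cell adhesion and synapses, 18 reached 10 CPM, with 15 above 0 and 1 below 0 in both libraries, beside 3203 above and 2191 below of all 9289 genes tested. The median over the 18 was 0.20 and 0.19, and over the 34 genes in the files 0.39 and 0.17 (0.31 in the non-traced library without the 3 droplets). In the interquartile range of UMI counts 9 of 18 were above 0 and 1 below, with medians of 0.002 and 0.19 over those at 10 CPM. Nlgn1, a postsynaptic adhesion protein, stood at 27.4 against 12.5 CPM and at 17.1 against 13.5 CPM, and its non-traced difference of 1.08 became 1.04 without the droplets. It was chosen after its values were seen. Astn1, an adhesion protein of neurons migrating along glia, stood at 99.6 against 66.4 CPM and at 83.9 against 60.8 CPM.

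As a list, radial glia and stem cell genes had a small median difference, while single genes of it differed more. Over 24 such genes the median difference was 0.05 and 0.06. Of the 15 at 10 CPM or more, 11 were above 0 and 1 below in both libraries. Among all 9289 genes tested, 3203 were above and 2191 below 0 in both. Sox2, a progenitor transcription factor, stood at 1020 against 946 CPM and at 938 against 917 CPM. Vim, an intermediate filament gene, stood at 1720 against 1838 CPM and at 2207 against 2061 CPM. Fabp7, a fatty acid binding protein of radial glia, stood at 103 against 85.8 CPM (0.26) and at 67.3 against 48.9 CPM (0.45). Nes, the filament gene nestin, stood at 22.4 against 20.8 CPM (0.10) and at 13.8 against 7.04 CPM (0.88).

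The cilia programme was level with that of other ependymal cells. Of 78 axoneme genes 72 reached 10 CPM, with 19 above 0 and 23 below 0 in both libraries, and the median was 0.01 and -0.02. All 9289 genes tested gave 3203 above and 2191 below. Dnah12, a dynein heavy chain, stood at 336 against 329 CPM and at 549 against 560 CPM. Rfx3, a transcription factor of ciliary genes, stood at 156 against 133 CPM and at 145 against 140 CPM. Of 22 Notch pathway genes, 10 reached 10 CPM, with 7 above 0 and 1 below in both libraries and a median over the list of 0.08 and 0.07. The shares over all genes tested were 34.5% above and 23.6% below. Hes1, a Notch target, stood at 506 against 498 CPM and at 316 against 306 CPM.

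Of 30 cell cycle genes only 8 reached 10 CPM, with 0 above 0 and 6 below 0 in both libraries, beside 3203 above and 2191 below of all 9289 genes tested. The median over these 8 was -0.10 in the non-traced and -0.18 in the traced library. Over all 30 it was -0.85 and -0.46, values that rested largely on genes with few molecules in the non-traced selected cells. Mki67, a marker of dividing cells, stood at 0.830 CPM (1 UMI) against 12.0 CPM in the non-traced and at 4.31 (26 UMIs) against 13.1 CPM in the traced library, and its traced difference of -1.41 became 0.092 when at least 3 of the 6 genes were asked for. Top2a, which untangles DNA before mitosis, stood at 1.66 CPM (2 UMIs) against 13.6 CPM and at 10.6 (64 UMIs) against 14.9 CPM. Cenpf, a centromere protein gene, stood at 21.6 against 34.2 CPM and at 33.3 against 46.3 CPM. Genes of DNA replication did not share this size, with Mcm6 differing by -0.05 and -0.01 and Pcna by -0.04 and -0.12.

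The other genes ranked lowest were mixed. Ly6h, a GPI-anchored protein gene and the most abundant protein-coding gene among the 12, stood at 227.5 against 324 CPM in the non-traced and at 336 against 502 CPM in the traced library, differences of -0.51 and -0.58. Its level also stepped down with the number of selecting genes in cells thinned to 3000 UMIs, with 329, 308, 254 and 188 CPM in non-traced cells holding 0, 1, 2 and at least 3 of them, and 558, 430, 377 and 255 CPM in traced cells. Cpe stepped up over the same classes, from 7.41 to 62.5 CPM and from 2.84 to 13.9 CPM, while Foxj1 showed no such order (524, 497, 445 and 458 CPM, and 479, 451, 454 and 491 CPM). The highest classes held only 12 and 6 Cpe UMIs (intervals 32.3 to 109 and 5.10 to 30.2 CPM). Below them, the Cpe intervals of the classes overlapped one another in each library. Npy, which encodes neuropeptide Y, stood at 12.5 against 30.5 CPM and at 50.2 against 72.1 CPM. The remaining genes of the 12 were Ckap2l, a mitotic spindle gene (-0.84 and -0.67), Phlda3, a p53 target (-0.52 and -0.71), Ephx1, an epoxide hydrolase (-0.73 and -0.51), Rn18s-rs5, a ribosomal RNA related sequence (-0.53 and -0.50), Prr29 (-1.25 and -0.49), Ttc39c (-0.48 and -0.47), Gm29538, a long non-coding RNA (-0.89 and -0.44), and Reep4, a gene of mitotic membrane clearing (-0.96 and -0.41).

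**Figure D4:**
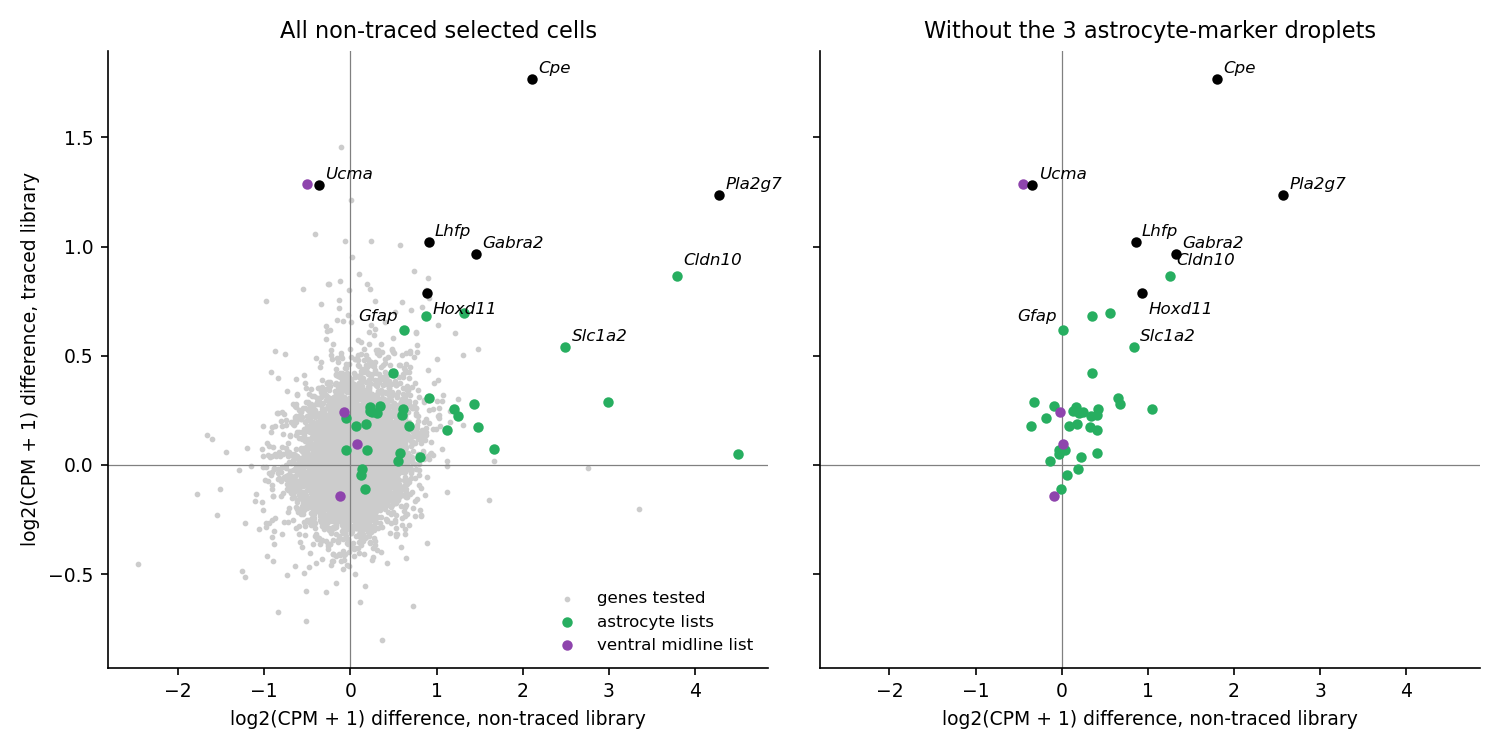
Difference in log2(CPM + 1), selected minus remaining ependymal cells, in the non-traced (x axis) and traced library (y axis), with grey points for genes tested, green for astrocyte lists, purple for ventral midline genes and black for other named genes. Left, all 115 non-traced selected cells, and right, with listed and named genes alone, without the 3 droplets that held all astrocyte-defining genes, where Pla2g7 moves from 4.28 to 2.57 and Cpe from 2.11 to 1.81 on the x axis.

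In the traced library the 11 genes that were higher by 1 or more included several regional patterning genes, and these did not differ in the same way in the non-traced library. Besides Cpe, Pla2g7 and Lhfp they included Irx2 and Zfhx4, which encode homeodomain transcription factors, Ucma and Vtn, which encode secreted matrix proteins, Tagln3, Pamr1 and P4ha3. All 11 differences stayed at 1 or more without the 3 droplets, which touch the non-traced library only, and 10 did so within the interquartile range of the selected cells' UMI counts. Ucma stood at 33.5 CPM in the selected and 13.2 CPM in the remaining traced cells (1.28), but at 104 and 134 CPM in the non-traced library (-0.36). Irx2 stood at 8.29 and 2.39 CPM (1.45) and at 15.8 and 17.0 CPM (-0.10), and Vtn at 11.4 and 4.98 CPM (1.06) and at 81.4 and 109 CPM (-0.42). Side by side, the traced selected cells thus had levels of these 3 genes between those of the remaining traced and of the non-traced ependymal cells. The study also used Vtn as a pericyte gene, and the part of free RNA in its level was not tested.

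The list of 14 floor plate and ventral midline genes was followed further. Of the 12 in the files only 4 reached 10 CPM, with 1 above and 1 below 0 in both libraries, and the median over the 12 was -0.15 in the non-traced and 0.48 in the traced library. All genes tested gave 34.5% above and 23.6% below. Slit2, a secreted axon guidance cue of the floor plate, stood at 7.46 against 1.78 CPM in the traced and at 12.5 against 14.3 CPM in the non-traced library. Sulf1, a heparan sulphate editing enzyme, stood at 5.97 against 2.09 CPM and at 11.6 against 16.2 CPM, and Foxa1, a floor plate transcription factor, at 2.98 against 1.03 CPM and at 8.30 against 10.4 CPM. Nkx6-1, a transcription factor of the ventral cord and the most abundant of the list, did not follow them, at 221 against 244 CPM and 231 against 250 CPM.

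Per cell, the difference rested on a small share of the traced selected cells. A Slit2 UMI was found in 5.92% of them against 1.25% of the remaining traced cells, and a Ucma UMI in 13.0% against 4.32%. After thinning to 3000 UMIs the Slit2 shares were 2.73% (interval 1.42 to 4.73) and 0.307% (0.163 to 0.524), and the Ucma shares 5.69% (3.72 to 8.29) and 2.41% (1.97 to 2.91). At least 3 of the ventral genes were found after thinning in 2.28% of selected and 0.920% of remaining traced cells, and in 2.61% and 4.65% of non-traced cells. The counts behind the thinned shares were small, 12 selected cells with Slit2 and 25 with Ucma.

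Dorsal and rostrocaudal genes gave a different picture. Zic1, a dorsal midline transcription factor, stood at 16.6 against 4.68 CPM in the non-traced and 4.81 against 0.377 CPM in the traced library, but with UMIs in only 6 and 9 selected cells and in 6.39% of non-traced endothelial cells, so that its part in free RNA was not tested. Of 26 Hox genes, which set the level along the cord, 23 reached 10 CPM, with 6 above 0 and 9 below in both libraries and a median of -0.04 in each. Of the 7 members with paralogue numbers 9 and 10, the caudal end of the list, 5 were above 0 in both libraries and 0 below (median 0.52 and 0.21), and of the 16 tested with numbers 2 to 8, 1 was above and 9 below (median -0.05 and -0.10). Beside these counts, 34.5% of all genes tested were above and 23.6% below 0 in both, and 7 is a small number of genes. Hoxd10 stood at 24.1 against 13.8 CPM and 17.7 against 11.3 CPM, Hoxa10 at 43.2 against 27.3 CPM and 32.3 against 23.8 CPM, and Hoxc10 at 34.9 against 22.1 CPM and 19.4 against 15.5 CPM. Hoxc4, a rostral member, stood at 40.7 against 50.03 CPM and 56.8 against 69.2 CPM, and Hoxa7, of the middle, at 209 against 197 CPM and at 170 CPM in both traced sets. This grouping and these Hox genes were chosen after the values were seen.

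**Figure D5:**
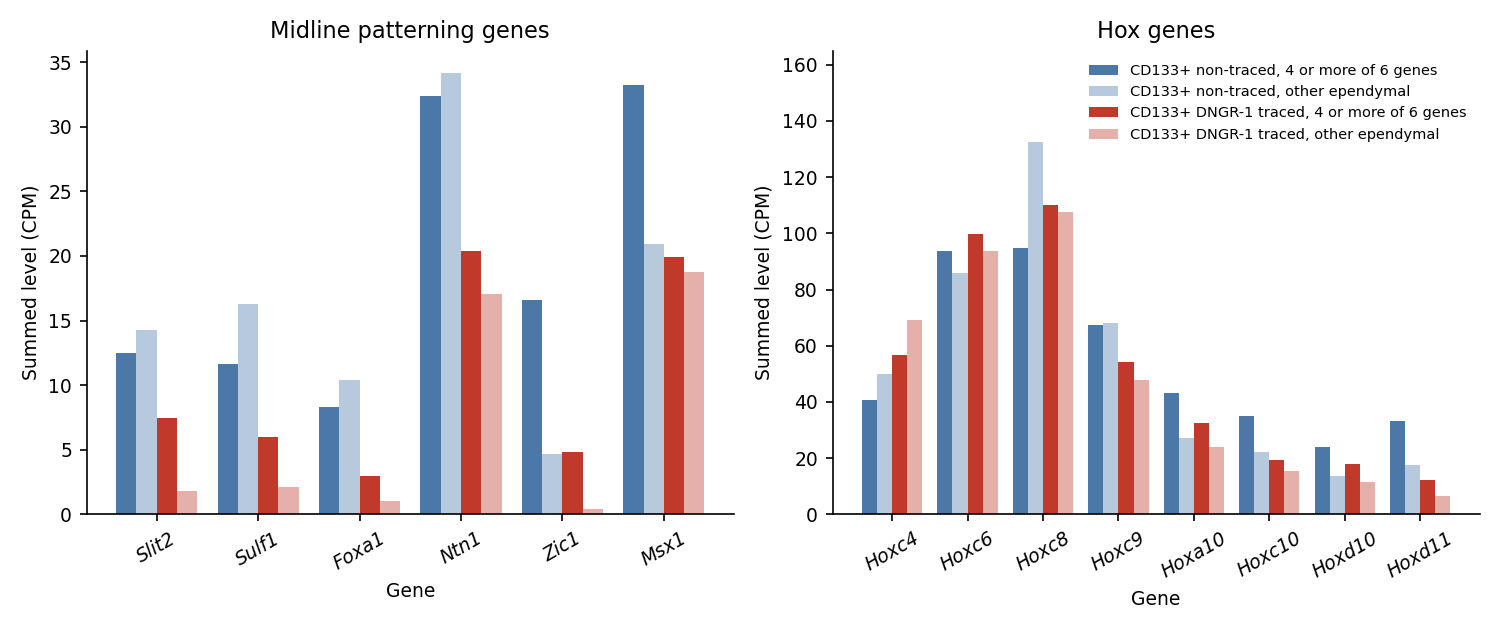
CPM of midline and Hox genes in the selected and remaining ependymal cells of both libraries. Slit2 (7.46 against 1.78 CPM) and Sulf1 (5.97 against 2.09 CPM) are higher in the selected cells of the traced library only, and Hoxd10, Hoxa10 and Hoxc10 are higher in the selected cells of both.

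Markers of other cell types were checked in the selected cells. No selected cell had at least 3 genes of the lists for oligodendrocyte precursors, microglia, fibroblasts or neurons that contact the cerebrospinal fluid, 0 of 115 and 0 of 439 cells. Taking 3 cells as the most that a count of 0 allows, a floor that differs from the exact intervals used elsewhere, shares of such cells could be up to 2.61% and 0.683%. At least 3 of 10 mural cell genes were found in 17.4% of non-traced and 5.69% of traced selected cells against 6.30% and 1.51% of the remaining cells, and after thinning in 2.61% and 0.228% against 1.74% and 0.236%. The summed level of the mural list was 391.1 against 391.9 CPM and 121 against 94.5 CPM. At least 3 oligodendrocyte genes were found in 3.48% of non-traced selected cells against 0.376% of the remaining cells, and in 0.456% against 0.325% in the traced library. After thinning these shares were 1.74% (2 cells) and 0.0969% (1 cell), and 0% in both traced sets. The summed level of the oligodendrocyte list was 209 against 164.6 CPM, or 158 without the 3 droplets, and 144 against 150 CPM in the traced library. The part of such RNA in the differences above was not tested.

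The last comparison was between traced and non-traced selected cells. Of 9353 genes with a mean of at least 10 CPM over both sums, 117 were higher in the traced selected cells by 1 or more on the log2(CPM + 1) scale (1.25%) and 142 lower (1.52%). The 2 libraries were separate sorts and droplet runs, so that tracing and library cannot be told apart, and the non-traced library also held 23049 endothelial cells against 58 in the traced one.

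Rows of the reporter construct set the groups apart as the sort would. WPRE-tdTomato stood at 262 CPM in the traced against 69.7 CPM in the non-traced selected cells, a difference of 1.90 beside 2.15 in the remaining ependymal cells. A UMI of it was present in 91.6% of traced selected cells, and also in 54.8% of the non-traced ones, against 39.6% of the remaining non-traced ependymal cells and 40.2% of non-traced endothelial cells, at median depths of 9412, 6910.5 and 7131 UMIs. After thinning the shares in the non-traced library were 18.3%, 21.4% and 17.4%, so that the selected cells lay at the level seen in endothelial cells. In the traced library WPRE-tdTomato was lower in selected than in remaining cells, 262 (interval 249 to 275) against 326 (320 to 332) CPM. The bGHpoly(A)signal row behaved alike, with 766 and 234 CPM in traced and non-traced selected cells.

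The SV40poly(A)signal row ran the other way, at 693 CPM against 401 CPM in the non-traced and the traced selected cells, beside 801 and 272 CPM in the remaining cells. In the selected cells of the non-traced and the traced library, NeoR/KanR stood at 10.8 and 13.9 CPM, PGKpoly(A)signal at 9.13 and 8.29 CPM and chimericintron at 183 and 138 CPM, while PGKpromoter, Rosa26leftarm and Rosa26rightarm had at most 5 UMIs in either. Clec9a itself had 0 UMIs in the non-traced and 3 UMIs in the traced selected cells. The mice were homozygous for the Cre allele, a genotype that the paper treats as lacking Clec9a. These counts therefore do not show whether the locus was active. Prom1, which encodes CD133, the antigen of the sort, stood at 23.2 against 27.2 CPM and at 13.4 against 9.30 CPM, selected against remaining cells.

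Genes that differed between traced and non-traced selected cells mostly differed alike in the remaining ependymal cells. Among genes with a mean of at least 50 CPM, the largest positive differences after the reporter rows were Hist1h1e, a linker histone (1.78, and 1.70 in the remaining cells), Ttll8, a ligase that modifies ciliary tubulin (1.59 and 1.33), Mir6236 (1.53 and 1.47), Gm42418 (1.35 and 1.36), Wdr49 (1.27 and 1.37) and Ccdc170 (1.19 and 1.13). Mir6236 and Gm42418 hold repeated or ribosomal sequence, so that their counts may include reads of other loci. The negative differences included Slc1a2 (-2.49, and -0.53 in the remaining cells), which became -0.83 without the 3 droplets. Gpr37l1, a glial receptor (-1.70 and -1.51, or -1.19 without the droplets), and mt-Nd3, a mitochondrial complex I gene (-1.69 and -1.71), moved alike in both sets. Atp1b2, a sodium pump subunit, and Enho, a secreted peptide gene, differed by -1.53 and -1.45, beside -0.51 and -0.72 in the remaining cells, and by -0.63 and -0.58 without the droplets. Ucma was an exception, at -1.60 in the selected and -3.25 in the remaining cells, which restates its higher level in traced selected cells given above.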

How the data were processed

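Cells from 2 sorted fractions were profiled with Chromium Single Cell 3' kits. The deposited tables hold whole-number UMI counts per gene and cell, made by the authors with Cell Ranger 3.0.2 and STAR 2.5.1b on mm10 with reporter sequences added, per the labels and the study's methods, which also name R 3.6.0 and Seurat 3 and a filter on genes and mitochondrial share. Every barcode in the tables was used, no doublets were removed, and there was 1 library a group, so no test was run. Counts were summed over the cells of a set and compared as log2(CPM + 1) with a minimum mean of 10 CPM, leaving out the 24 rule genes, using Python 3.11.15, numpy 2.4.6, scipy 1.17.1, pandas 2.3.3 and matplotlib 3.10.9. Thinning drew 3000 UMIs from each cell with a fixed seed. The scripts were tested on simulated data. Total UMIs were 233318692 in the non-traced and 46530507 in the traced library. Named genes are the 12 highest and 12 lowest by the library with the smaller difference, the 8 in each direction between traced and non-traced selected cells at a mean of at least 50 CPM, a fixed panel, all reporter rows, and list members, and some of these genes are not reported here. The rule, the members and the gene lists were chosen with earlier results of these data known, and the alternatives without the 3 droplets and the grouping of Hox genes after the data had been seen.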

Additional observations from a re-analysis of the deposited data

Results flagged for a closer look

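The bGHpoly(A)signal row of the reporter construct, which no comparison of genes was designed around, stood at 766 CPM (interval 744 to 788) in the traced selected cells against 234 CPM (208 to 263) in the non-traced selected cells, the control fraction of the sort. It was singled out because its interval in the traced cells lay above that in the non-traced cells. In the remaining ependymal cells the same row stood at 936 CPM and 222 CPM. With 1 library in each fraction, tracing and library cannot be told apart.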

How the results depend on the processing

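No paired analysis was possible because each group was 1 library, and leaving out a library leaves no comparison. Of the differences recomputed for single genes, 2224 stayed within their counting error or close to it, 451 did not, and 13 whose first value was past 1 or -1 changed sign. These totals do not measure robustness. The minimum means of 1 and 50 CPM cannot change a single-gene difference, and each adds 192 values to the first total. The interquartile range without the droplets holds the same cells as with them, so its 62 moved values and 1 change of sign are counted again. The cause was not tested unless the setting itself removes cells. Values are given as non-traced then traced. With at least 3 of the 6 genes, the selected share became 26.5% and 25.2%, genes higher in both libraries 0 (11 with at least 5 genes), the astrocyte-defining median 0.94 and the broad median 0.43 in the non-traced library, the axoneme medians 0.043 and -0.047, genes higher in traced selected cells 71, and Mki67 in the traced library 0.092. With at least 5 genes the share became 2.54% and 2.74%, the defining median 2.09 and the axoneme median 0.062 in the non-traced library, the broad medians 1.24 and 0.25, and 442 genes were higher and 418 lower in traced selected cells.

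With the rule applied to cells thinned to 3000 UMIs (14 and 20 cells), the share became 1.23% and 0.428%, the traced share of the selected cells 58.8%, genes higher and lower in both libraries 82 and 87, the defining medians -0.52 and 0.50, the broad medians 0.035 and 0.44, the axoneme medians -0.072 and -0.093, and 1369 genes were higher and 1246 lower in traced selected cells. There the traced minus non-traced difference changed sign for Gabra2 (1.85), Lhfp (0.16), Cldn10 (1.08), Ckap2l (-4.13), Npy (-1.22), Slc1a2 (0.17), Ucma (1.64), Atp1b2 (0.042), Enho (0.66) and Aldh1l1 (2.496), on few UMIs each.

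Without cells above the 95th percentile of UMIs the share became 8.04% and 7.65%, the defining median 1.03 in the non-traced library, the broad medians 0.55 and 0.24, the axoneme medians -0.027 and -0.069, and 213 genes were higher in traced selected cells. Without cells holding markers of another class the share became 7.95% and 7.30%, 1 gene was higher in both, the non-traced defining and broad medians were 0.15 and 0.31, and 237 genes were higher in traced selected cells. Without the 3 droplets these medians were 0.071 and 0.22 and 1 gene was higher in both. Within the interquartile range of UMI counts, with or without such droplets (none lies in it), the defining median was 0.64 in the non-traced library, the broad medians 0.25 and 0.25, the axoneme medians -0.021 and -0.093, 314 genes were higher and 238 lower in traced selected cells, and Cldn10 changed to 1.005.

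A minimum mean of 1 CPM gave 8 genes higher and 8 lower in both libraries and 445 higher and 818 lower in traced selected cells, and 50 CPM gave 0 higher in both, and 20 and 16. A pseudocount of 5 gave 1 gene higher in both, non-traced defining and broad medians of 1.15 and 0.63, and 46 higher and 85 lower in traced selected cells. The mean of per-cell CPM gave a non-traced defining median of 1.40, and median ratio normalization a traced axoneme median of -0.042. An endothelial limit of 0.1% left every value within its counting error.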
